A study of Homo sapiens with 12 samples.

Results

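The 48 genes described here encode the machinery of G2 and mitosis: cyclins and the kinase CDK1, mitotic kinases, checkpoint and kinetochore proteins, spindle motors, cytokinesis factors and chromosome proteins. They were taken by symbol from a fixed list of G2 and M phase genes and not by a measured value, though earlier results of these data were known. All 48 were among the 59611 symbols of the count table, and all 48 were among the 15218 genes with enough counts to be tested. Transcripts of these genes are low in G1 and rise together from late S phase to mitosis. In quiescent or G1 cells the DREAM complex, which binds a promoter element called CHR (cell cycle genes homology region), holds them down, and in G2 the MuvB core of that complex works with B-MYB (MYBL2) and FOXM1 as an activator, often beside CCAAT boxes bound by NF-Y. Cyclin B with CDK1 then drives entry into mitosis, and the anaphase-promoting complex ends it by marking cyclin B and securin for destruction.

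Messenger RNA was counted in 697 and KOPN-8, both B-lineage acute lymphoblastic leukaemia lines grown from childhood leukaemia, the latter with a KMT2A fusion. Each line had 3 libraries of an sgRNA empty vector control with the genotype SETD2 WT and 3 libraries of a clone made with an sgRNA to SETD2, with the genotype SETD2 heterozygous KO. The clone was BM_B in 697 and BA in KOPN-8, 1 clone per line, so differences of the edit cannot be told apart from other differences of that clone. SETD2 is the histone methyltransferase that trimethylates H3K36 along transcribed genes. These groups are called control and edited below. No drug or other treatment is given in the labels. Replicates are labelled as biological without saying what was grown apart, so p-values measure the spread between these libraries.

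SETD2 mRNA in 697 stood at 156, 158 and 169 CPM (counts scaled to library size with TMM factors) in the control libraries and at 207, 211 and 238 CPM in the edited ones. All 3 edited libraries were above all 3 controls (log2 fold change 0.44, SE 0.0692; edgeR quasi-likelihood test, p Benjamini-Hochberg adjusted across the whole table here and below: adjusted p = 0.000103). In KOPN-8 it stood at 159, 171 and 177 CPM in the control and 161, 151 and 162 CPM in the edited libraries, which overlap (-0.10, SE 0.0689; edgeR adjusted p = 0.309). Gene-level counts do not show the alleles, so they do not check the genotype. Library totals ran from 10378769 to 18278662 counts. All 8 B-lineage markers were expressed in every group. Of the T-cell, myeloid and erythroid markers, LYZ reached at most 2.97 CPM and CSF1R 1.57 CPM as group means, the others had at most 18 counts in all libraries together, and CD3D, HBA1 and HBB had 0. HOXA9 marked KOPN-8 (147 CPM in control) against 0 counts in control 697.

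The promoters show the sequence elements through which these genes are known to be timed. Of genes that recur in the results below, CCNB1 and CDC20 were called in neither edited clone by the main fit. PLK1, KIF20A and TMPO were called, and MKI67 differed most between the lines after UBE2C. The promoters of these 6 genes are printed. Each is the 120 bases before the annotated transcription start, 5′ to 3′ on the strand of the gene, from RefSeq on GRCh38.p14. Capitals mark the CHR (TTTGAA or TTCGAA) and the CCAAT box, each searched on both strands, so that ATTGG is a CCAAT box on the other strand.
CCNB1: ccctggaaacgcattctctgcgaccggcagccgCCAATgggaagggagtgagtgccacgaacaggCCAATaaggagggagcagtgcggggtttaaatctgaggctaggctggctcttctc
CDC20: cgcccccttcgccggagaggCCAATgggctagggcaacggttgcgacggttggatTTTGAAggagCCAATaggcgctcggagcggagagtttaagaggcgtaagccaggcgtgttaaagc
PLK1: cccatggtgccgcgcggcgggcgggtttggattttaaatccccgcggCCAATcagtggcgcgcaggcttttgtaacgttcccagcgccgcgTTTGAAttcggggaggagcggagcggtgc
KIF20A: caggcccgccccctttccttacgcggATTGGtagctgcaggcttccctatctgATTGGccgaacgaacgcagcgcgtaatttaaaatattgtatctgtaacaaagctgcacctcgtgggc
MKI67: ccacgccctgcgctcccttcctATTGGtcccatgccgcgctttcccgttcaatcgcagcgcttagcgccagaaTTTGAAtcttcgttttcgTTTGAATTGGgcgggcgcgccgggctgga
TMPO: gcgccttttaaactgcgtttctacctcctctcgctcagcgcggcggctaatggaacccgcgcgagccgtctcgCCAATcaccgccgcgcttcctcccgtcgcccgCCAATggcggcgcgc
These lie at chr5:69167030-69167149 (CCNB1, plus strand), chr1:43358861-43358980 (CDC20, plus), chr16:23678769-23678888 (PLK1, plus), chr5:138178992-138179111 (KIF20A, plus), chr10:128126424-128126543 (MKI67, minus) and chr12:98515453-98515572 (TMPO, plus). Counted back from the start, PLK1 had a CHR at -29 and a CCAAT box at -73, and CDC20 had a CHR at -65 between CCAAT boxes at -100 and -55. MKI67 had a CHR at -47 and another at -29, and the latter shares 1 base with the CCAAT box at -24. CCNB1, KIF20A and TMPO had 2 CCAAT boxes each and no CHR of these letters in the printed window.

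RefSeq promoters were at hand for 41 of the 48 genes. In the 250 bases before the start, 23 of the 41 (56.1%) held a CHR of these letters, against 17.2% of all 27305 promoters of the table and 13.7% of those of the genes tested. A CCAAT box was found in 31 (75.6%, against 37.0% of all promoters) and 2 or more in 22 (53.7%, against 11.5%). Both elements together were found in 20 (48.8%), against 6.24% of all promoters. Among 31 promoters of S phase genes, 5 (16.1%) held a CHR and 23 (74.2%) a CCAAT box, so the S phase genes were near all promoters for the CHR and near the G2/M genes for the CCAAT box. A match is a run of letters, and binding was not measured.

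Before the comparisons, the level of the 48 genes was set out library by library, because the mix of cell cycle phases may vary between cultures. In bulk RNA, fewer cells in G2 and mitosis and less of these RNAs per cell cannot be told apart. For each gene the log2 CPM was taken relative to its group mean, and the median over the 48 genes was used as the library's level. Control 697 replicate 1 stood apart: its median was -0.16 and 2 of 48 genes (CKS2 and G2E3) were above the group mean. Control replicate 2 was at 0.04 with 34 genes above, and control replicate 3 at 0.11 with 46 genes above. The low level in replicate 1 was shared by all 9 roles, from -0.08 in the checkpoint and cyclin groups to -0.18 in the mitotic kinases and -0.19 in the group of anaphase-promoting complex genes and securin. The median over the 10809 genes that averaged 5 CPM or more was 0.00 in each of the 3 libraries.

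The 42 S phase genes moved partly with them. Their medians were -0.08, -0.03 and 0.11 in control 697 replicates 1 to 3, so replicate 3 was high for both phases, and replicate 2 was above its mean for G2/M genes and below it for S phase genes. The edited 697 libraries lay closer together, with G2/M medians of -0.01, -0.01 and 0.05. In KOPN-8 the control medians were -0.01, 0.05 and -0.04 and the edited ones 0.04, 0.06 and -0.09. Edited KOPN-8 replicate 3 was the low library there, with 5 of 48 genes above the group mean. The median over the 10809 genes was -0.02 in that library, with 42.1% of them above their group mean. Its lowest genes included CCNA2 (-0.18) and CCNB1 (-0.17). Within groups the SD of log2 CPM had a median of 0.0998 over the 48 genes and 0.114 over the 10809 genes, from 0.0586 for CDK1 to 0.294 for NUSAP1.

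**Figure D1:**
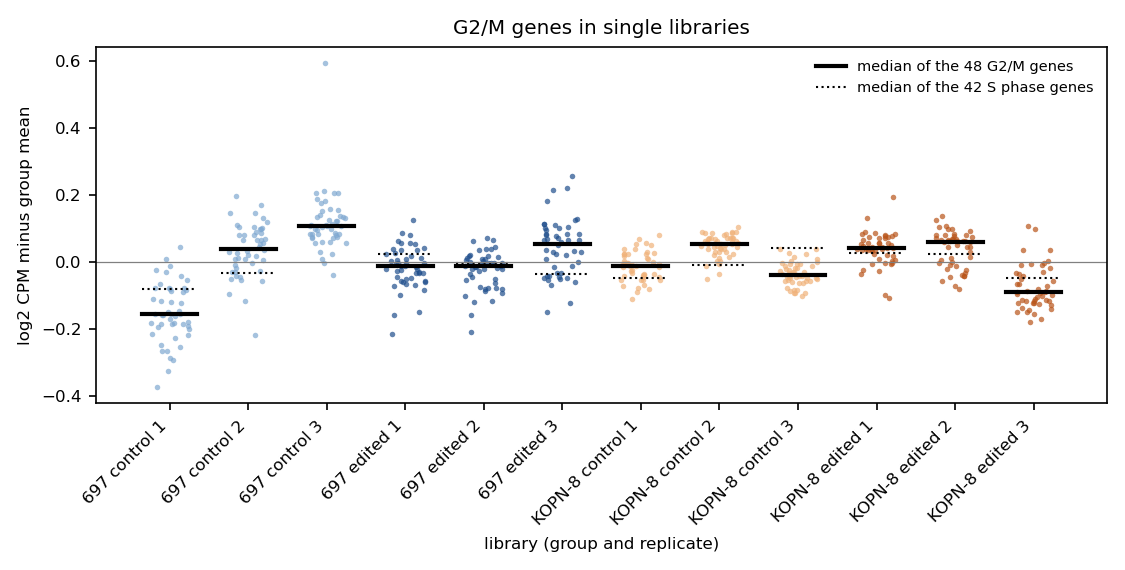
Deviation of each of the 48 G2/M genes from its group mean (log2 CPM, vertical axis) in each of the 12 libraries (horizontal axis). Points are genes, thick lines their median and dotted lines the median of 42 S phase genes. Control 697 replicate 1 lies lowest (-0.16) and control 697 replicate 3 highest (0.11).

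The comparison of the empty vector controls asked how much of this RNA the control cells of each line carry. Control KOPN-8 had more of it than control 697: 42 of 48 genes were called higher (adjusted p under 0.05), none was called lower, and the median log2 difference was 0.56 (range -0.06 to 3.02). Of all genes tested, 73.3% were called, 36.6% higher and 36.7% lower, with a median of -0.01. The 3 libraries of each line did not overlap for 41 of 48 genes, all higher in KOPN-8, against 76.3% of all genes tested, 38% higher. The summed level of the 48 genes was 7018 ± 585 CPM in control 697 and 10629 ± 317 CPM in control KOPN-8 (SD, n = 3). The S phase genes were higher in KOPN-8 too: 31 of 42 were called higher and 5 lower, with a median of 0.35 and sums of 6230 ± 407 and 8001 ± 237 CPM. Without control 697 replicate 1, the low library, 38 of the 48 were called higher and the median was 0.48. In that fit 70.4% of all genes tested were called in either direction, beside 73.3% in the main fit.

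UBE2C, the ubiquitin-conjugating enzyme of the anaphase-promoting complex, differed most. It had 20.3, 24.8 and 24.5 CPM in control 697 and 197, 183 and 184 CPM in control KOPN-8, 8.10-fold more (log2 3.02, SE 0.0934; edgeR adjusted p = 3.23e-19). MKI67, which encodes the Ki-67 antigen that coats mitotic chromosomes, had 243, 317 and 344 CPM against 1229, 1313 and 1212 CPM, 4.15-fold more (log2 2.05, SE 0.0922). The lines were far apart for both genes, and the low 243 CPM was that of replicate 1.

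Spindle proteins came next. CKAP2L, a spindle-pole protein, was at 52.3 ± 5.90 CPM in control 697 and 171 ± 7.44 CPM in control KOPN-8 (SD, n = 3; log2 1.71). TACC3, which strengthens kinetochore fibres, was at 74.9 ± 7.45 and 215 ± 2.32 CPM (1.52), and GTSE1, a microtubule plus-end protein, at 63.8 ± 8.56 and 148 ± 1.06 CPM (1.21). Cyclin A (CCNA2) had 132, 137 and 151 CPM in control 697 and 314, 315 and 308 CPM in control KOPN-8 (log2 1.16). ANLN, the anillin of the cleavage furrow, was at 1.04 and CDCA2, which brings a phosphatase to anaphase chromatin, at 1.19. Cyclin B2 (CCNB2) was at 0.93 and PLK1 at 0.90. These 10 genes had the smallest p of the 42, each with an adjusted p of 8.86e-11 or less by edgeR quasi-likelihood with Benjamini-Hochberg adjustment.

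Other core regulators were called too. The log2 difference was 0.98 for AURKA, 0.60 for CDK1, 0.58 for CCNB1, 0.36 for CDC20 and 0.34 for the checkpoint kinase BUB1, all called higher in KOPN-8. The 6 genes that were not called were CDC25C (0.15), BIRC5 (0.13), NUSAP1 (0.09), G2E3 (-0.02), TMPO (-0.04) and CENPF (-0.06). Of 16 regulators of the programme, 6 were called higher and 6 lower in KOPN-8 (75%, beside 73.3% of all genes tested), with a median of -0.07. The largest differences were those of E2F5, at 10.5 ± 1.07 against 140 ± 23.8 CPM (log2 -3.74), and TFDP1 (1.29). FOXM1 was higher in KOPN-8 at 168 ± 3.39 against 123 ± 18.4 CPM (log2 0.45, SE 0.0813, edgeR adjusted p = 2.88e-05). MYBL2 was lower there at 143 ± 2.25 against 173 ± 26.7 CPM (-0.28, SE 0.0851; adjusted p = 0.00530 by the same edgeR test). CDKN1A, the p21 inhibitor of cyclin-dependent kinases that leads to DREAM assembly, was also higher in KOPN-8, at 261 ± 27.3 against 71.6 ± 6.29 CPM (log2 1.86).

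**Figure D2:**
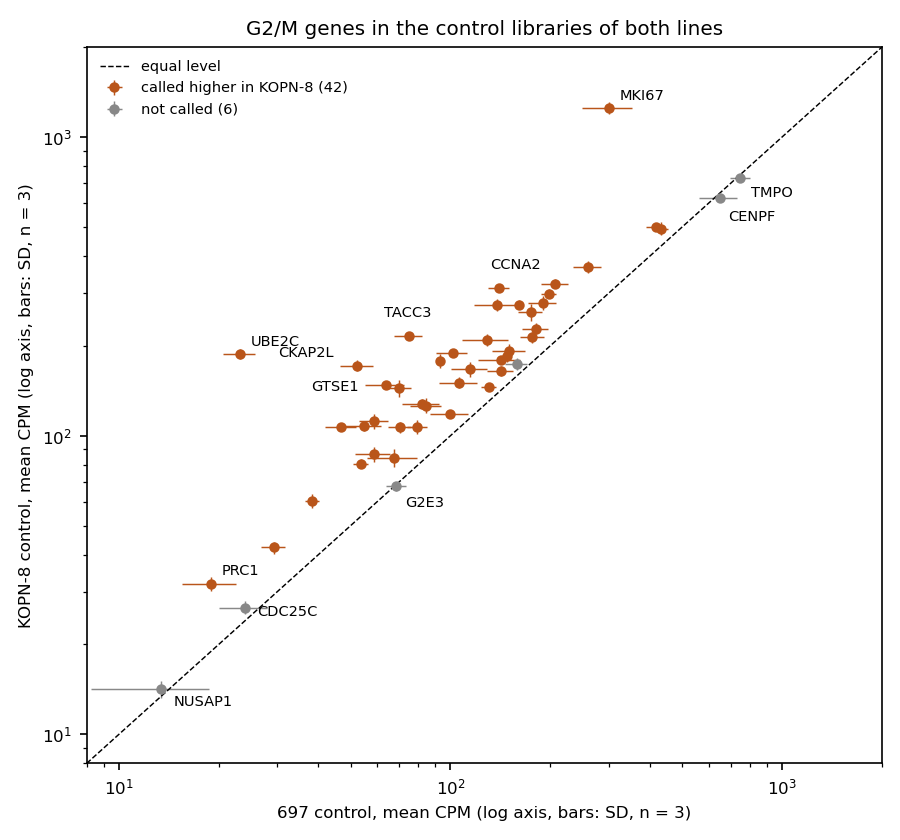
Mean CPM of each G2/M gene in control 697 (horizontal, log axis) and control KOPN-8 (vertical, log axis), with bars of 1 SD over 3 libraries and a dashed line of equal level. The 42 orange genes, called higher in KOPN-8, lie above the line, with UBE2C (3.02) and MKI67 (2.05) farthest from it by log2 difference.

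The comparison of edited with control 697 asked whether the SETD2-edited clone carried more or less of the mitotic programme. Most of these genes were not called: 5 of 48 genes were called higher and 2 lower, 14.6% in all, beside 9.45% of all genes tested (4.85% higher and 4.6% lower). The median log2 fold change was 0.09, against 0.00 over all genes tested, and 38 of 48 were above 0. The summed level was 7018 ± 585 CPM in the control and 7223 ± 161 CPM in edited 697 (SD, n = 3), a difference smaller than the SD of the control. The median was 0.01 without control replicate 1.

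UBE2C fell most. It stood at 20.3, 24.8 and 24.5 CPM in the control and at 5.28, 4.56 and 4.68 CPM in edited 697. Every edited library was below every control, 4.77-fold lower on the fitted scale (log2 -2.25, SE 0.131; edgeR adjusted p = 6.22e-12). The other genes of this role were not called: CDC20, the co-activator that UBE2C works with, had 131, 161 and 159 CPM in the control and 159, 154 and 146 CPM in the edited libraries (0.02, SE 0.0766). Securin (PTTG1) had 185, 221 and 215 against 185, 195 and 202 CPM (-0.09, SE 0.0705). For both genes the groups overlapped.

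TMPO, which encodes the lamina-associated LAP2 proteins of the nuclear envelope, was the other gene that fell. It had 741, 698 and 806 CPM in the control and 566, 529 and 514 CPM in edited 697, without overlap (-0.48, SE 0.0726; edgeR adjusted p = 5.94e-05). Its antisense neighbour TMPO-AS1 fell too, from 41.2 ± 4.55 to 24.7 ± 4.45 CPM (-0.73, SE 0.114; adjusted p = 9.16e-05 by the same edgeR test). TMPO-AS1 overlaps 8.30% of the TMPO exon bases on the opposite strand in GENCODE v29. Libraries were stranded, but no source used here gives how strand entered the counting.

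The 5 genes called higher in 697 came from different roles. The checkpoint kinase TTK (MPS1) had 37.5, 37.1 and 40.3 CPM in the control and 51.3, 45.9 and 52.6 CPM in the edited libraries (0.38, SE 0.0811; edgeR adjusted p = 0.00265). ECT2, the exchange factor that activates RhoA for cytokinesis, had 65.1, 69.8 and 76.5 against 87.9, 82.3 and 91.3 CPM (0.31, SE 0.0760; edgeR adjusted p = 0.00939). For both genes the lowest edited library lay above the highest control.

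SMC4, the condensin ATPase subunit, had 398, 405 and 449 CPM in the control and 498, 474 and 530 CPM in edited 697 (0.26, SE 0.0666; edgeR adjusted p = 0.0111). Cyclin B2 (CCNB2) had 91.7, 94.4 and 93.7 against 113, 111 and 113 CPM, with narrow groups (0.27, SE 0.0710; edgeR adjusted p = 0.0165). CKAP2L had 45.8, 53.7 and 57.4 against 60.7, 63.7 and 69.0 CPM (0.30, SE 0.0811; edgeR adjusted p = 0.0177). None of the 3 overlapped between groups, but the calls of SMC4 and CKAP2L were lost without edited replicate 3 (0.22 and 0.25), and that of CKAP2L also without control replicate 1 (0.21). Both calls were also lost in a fit of the 697 libraries alone. CKAP2L was the last gene inside the threshold, and NEK2, the centrosome kinase, the first outside it (0.20; edgeR adjusted p = 0.0924).

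The genes at the centre of mitotic entry were not called in 697. CCNB1 had 74.5, 88.2 and 91.1 CPM in the control and 87.6, 85.2 and 83.3 CPM in the edited libraries (0.01, SE 0.0835). CDK1 had 190, 194 and 209 against 198, 199 and 203 CPM (0.02, SE 0.0644), and CCNA2 132, 137 and 151 against 142, 145 and 137 CPM (0.02, SE 0.0745). In all 3 genes the edited libraries lay inside the range of the controls.

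PLK1 had 88.9, 108 and 107 CPM in the control and 107, 112 and 108 CPM in edited 697 (0.10, SE 0.0749). AURKA had 47.9, 54.7 and 61.5 against 55.8, 54.1 and 61.3 CPM (0.06, SE 0.0837). MKI67 had 243, 317 and 344 against 312, 324 and 340 CPM (0.11, SE 0.0899). For each of them control replicate 1 was the lowest of all 6 libraries, and none was called. BUB1 had 162, 188 and 191 against 197, 199 and 208 CPM, which do not overlap, yet it was not called (0.16, SE 0.0707; edgeR adjusted p = 0.182).

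In all, 12 of 48 genes did not overlap between control and edited 697, 10 higher and 2 lower, against 24.1% of all genes tested (12.5% and 11.6%). Same-numbered libraries of 697 deviated together, and a fit with the replicate number as a block called 12 of the 48, 10 higher and 2 lower, beside 15.2% of all genes tested. It kept the 7 and added NEK2 (0.21), the kinetochore pair NDC80 (0.21) and NUF2 (0.21), which together tie microtubules to the kinetochore, the spindle motor KIF11 (0.18) and DLGAP5 (0.18), all higher. The adjusted p of these 5 ran from 0.0218 to 0.0432 by edgeR quasi-likelihood with Benjamini-Hochberg adjustment.

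**Figure D3:**
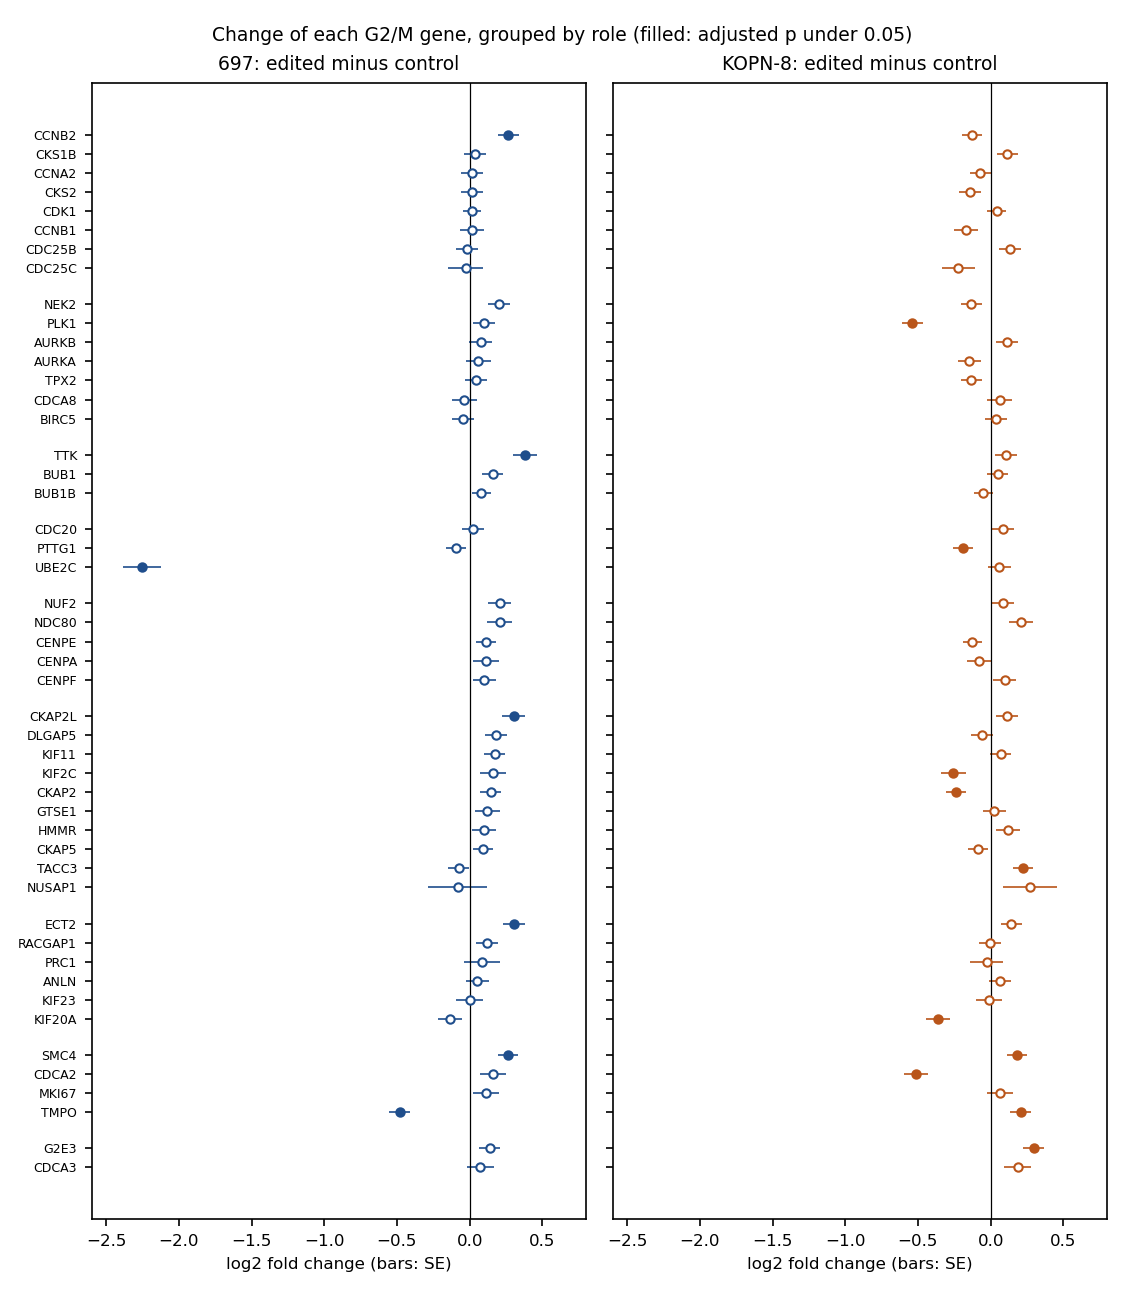
Log2 fold change of each G2/M gene (edited minus control, horizontal axis, bars of 1 SE) in 697 and in KOPN-8, with genes grouped by role from the cyclins at the top. Filled points have an adjusted p under 0.05: 7 in 697, where UBE2C stands at -2.25, and 10 in KOPN-8, where PLK1 is lowest at -0.54.

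The same question in KOPN-8 gave 10 called genes of 48, 4 higher and 6 lower. That is 20.8%, beside 28.7% of all genes tested (11.5% higher and 17.2% lower). The median was 0.04, against 0.00 over all genes tested, 26 of 48 were above 0, and no gene changed by 1.5-fold. The summed level was 10629 ± 317 CPM in the control and 10713 ± 463 CPM in edited KOPN-8 (SD, n = 3), which is within the SD of either group. Of the 48 genes, 20 did not overlap between the groups, 10 higher and 10 lower, against 45.1% of all genes tested (20.4% and 24.7%).

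PLK1, the kinase that drives centrosome maturation, mitotic entry and cytokinesis, fell most. It had 194, 188 and 185 CPM in the control and 133, 135 and 121 CPM in edited KOPN-8, a clear gap (-0.54, SE 0.0727; edgeR adjusted p = 2.79e-06). KIF20A (MKLP2), the motor that carries the passenger complex to the central spindle, fell from 173, 171 and 156 to 136, 134 and 119 CPM (-0.36, SE 0.0806; edgeR adjusted p = 0.00119), again without overlap. Of other genes of the central spindle and passenger complex among the 48, AURKB, the passenger kinase, was at 0.11 (SE 0.0789), KIF23 (MKLP1) at -0.01 (SE 0.0898) and PRC1 at -0.03 (SE 0.111), and these 3 were not called.

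CDCA2 had 106, 110 and 103 CPM in the control and 78.5, 78.1 and 67.4 CPM in edited KOPN-8, without overlap (-0.51, SE 0.0836; edgeR adjusted p = 3.56e-05). It was the single gene of the 48 on chromosome 8. Over the 424 genes tested on that chromosome, 270 were called lower in edited KOPN-8 and 22 higher, with a median of -0.53. A common cause of these changes was not tested. In 697 the median of chromosome 8 was 0.02, and CDCA2 was at 0.16 (SE 0.0896), not called.

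The depolymerising kinesin KIF2C (MCAK) had 271, 288 and 263 CPM in the control and 240, 239 and 210 CPM in edited KOPN-8 (-0.26, SE 0.0847; edgeR adjusted p = 0.0255). CKAP2, a spindle-pole protein, had 274, 285 and 265 against 232, 249 and 218 CPM (-0.24, SE 0.0692; edgeR adjusted p = 0.0113). Securin (PTTG1) had 329, 330 and 311 against 278, 297 and 275 CPM (-0.19, SE 0.0693; edgeR adjusted p = 0.0428). All 3 were lower without overlap between groups. CKAP2 lies on chromosome 13 on the near side of PCDH9, a break taken from an earlier analysis of these same KOPN-8 changes. The 164 genes tested before PCDH9 had a median of -0.01 in edited KOPN-8, and the 88 from PCDH9 on had -0.58. Because the break came from these changes, the gap between the medians is a description and no test.

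Of the genes called higher in KOPN-8, G2E3, a ubiquitin ligase named for its G2 expression, had 66.0, 70.4 and 66.8 CPM in the control and 85.2, 79.0 and 85.1 CPM in the edited libraries (0.30, SE 0.0728; edgeR adjusted p = 0.00309). TACC3 had 218, 214 and 215 against 261, 243 and 249 CPM (0.22, SE 0.0678; edgeR adjusted p = 0.0156). Both were higher without overlap. TMPO, which fell in 697, rose here from 710, 748 and 720 to 868, 877 and 768 CPM (0.21, SE 0.0721; edgeR adjusted p = 0.0346). SMC4 had 485, 506 and 503 against 563, 565 and 566 CPM (0.18, SE 0.0662; edgeR adjusted p = 0.0429). For TMPO and SMC4, too, every edited library was above every control.

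Cyclins and CDK1 were not called in KOPN-8 by the main fit. CCNB1 had 119, 134 and 125 CPM in the control and 118, 120 and 99.3 CPM in the edited libraries (-0.17, SE 0.0806, edgeR adjusted p = 0.123). With the replicate number as a block CCNB1 was called lower (-0.17, edgeR adjusted p = 0.0443), in a fit that called 35.1% of all genes tested. CCNA2 had 314, 315 and 308 against 314, 315 and 261 CPM (-0.07, SE 0.0720), and CDK1 297, 310 and 290 against 309, 323 and 291 CPM (0.04, SE 0.0633). The low value in both cyclins was that of edited replicate 3, the low library. CCNB2 had 181, 185 and 168 against 167, 175 and 146 CPM (-0.13, SE 0.0684).

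UBE2C had 197, 183 and 184 CPM in the control and 223, 189 and 175 CPM in edited KOPN-8 (0.06, SE 0.0809). CDC20 had 204, 186 and 189 against 211, 211 and 192 CPM (0.09, SE 0.0752), and MKI67 1229, 1313 and 1212 against 1309, 1313 and 1300 CPM (0.06, SE 0.0881). BUB1 had 220, 238 and 227 against 239, 248 and 221 CPM (0.05, SE 0.0697). All 4 overlapped between the groups. AURKA did not, at 112, 108 and 104 against 102, 96.3 and 93.5 CPM, but was not called (-0.15, SE 0.0783; edgeR adjusted p = 0.174). NEK2 had 80.3, 83.5 and 77.9 against 77.7, 74.9 and 67.8 CPM (-0.13, SE 0.0716), TTK 59.1, 64.3 and 58.6 against 67.1, 68.3 and 60.7 CPM (0.11, SE 0.0764), ECT2 102, 110 and 109 against 121, 124 and 109 CPM (0.14, SE 0.0730) and CKAP2L 165, 180 and 170 against 186, 193 and 177 CPM (0.11, SE 0.0741), none of them called.

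The KOPN-8 calls were sensitive to single libraries. Leaving out 1 library at a time gave 4 calls without control replicate 2, 6 without control replicate 1, control replicate 3, edited replicate 1 or edited replicate 3, and 8 without edited replicate 2. All genes lost calls in these fits too: 21.8% to 24.4% of all genes tested were called, beside 28.7% in the main fit. SMC4 was lost whichever of the 6 libraries was left out, TMPO in all but the fit without edited replicate 3, and PTTG1 in all but the fit without edited replicate 2. PTTG1 was also lost under RLE scaling, upper-quartile scaling and no filter on low counts. KIF2C was lost without control replicate 1 or 2 or edited replicate 3, TACC3 without control replicate 2 or 3 or edited replicate 1, and CKAP2 without control replicate 2 or edited replicate 3. PLK1, CDCA2, KIF20A and G2E3 were called in every alternative fit. SMC4 was the last gene inside the threshold, and NDC80 the first outside it (0.21; edgeR adjusted p = 0.0552).

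**Figure D4:**
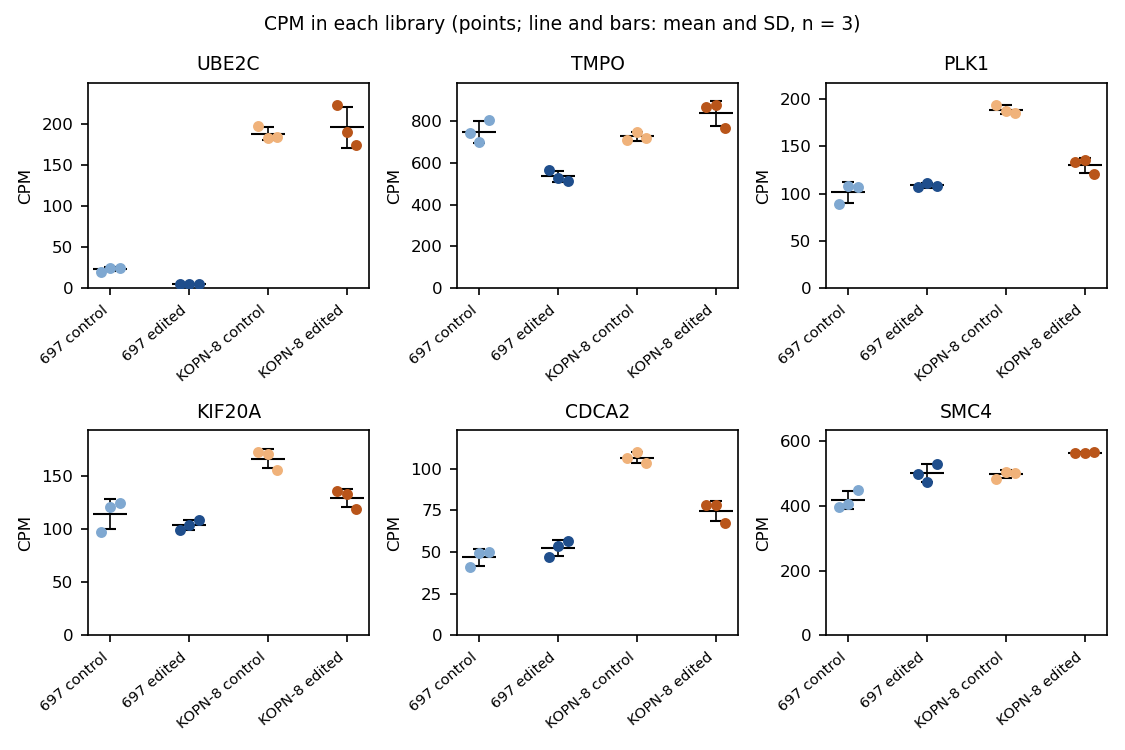
CPM in each library (vertical axis, from 0) of 6 G2/M genes in the 4 groups; points are libraries, lines and bars the mean and SD (n = 3). UBE2C drops in edited 697, PLK1, KIF20A and CDCA2 are lower in edited than in control KOPN-8, TMPO moves in opposite directions and SMC4 is higher in both edited groups.

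Each edited clone was compared with the control of its own line. SMC4 was called higher in both, TMPO was called in opposite directions, 5 genes were called in 697 and not in KOPN-8, 8 in KOPN-8 and not in 697, and 33 in neither. Of all 15218 genes tested, 103 were called higher in both lines, 166 lower in both and 274 in opposite directions. A further 895 were called only in 697, 3827 only in KOPN-8 and 9953 in neither, so most genes of either set were called in neither. Across the 48 genes the changes had a Pearson r of -0.06, which describes genes that share libraries, beside -0.01 over all genes tested.

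Whether a change differed between the lines was tested directly. The difference, KOPN-8 change minus 697 change, was called for 9 of 48 genes, 3 higher and 6 lower, 18.8%, beside 19.5% of all genes tested (7.46% higher and 12.1% lower). UBE2C (2.31, SE 0.155; edgeR adjusted p = 6.34e-11) and TMPO (0.69, SE 0.102; edgeR adjusted p = 2.06e-05) had fallen in 697. PLK1 (-0.64, SE 0.104; edgeR adjusted p = 6.56e-05) and CDCA2 (-0.67, SE 0.123; edgeR adjusted p = 0.000241) had fallen in KOPN-8. CCNB2 (-0.40, SE 0.0985; edgeR adjusted p = 0.00497) had risen in 697.

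CKAP2 (-0.38, edgeR adjusted p = 0.00683), KIF2C (-0.42, 0.0165) and TACC3 (0.30, 0.0376) had changed in KOPN-8, while NEK2 (-0.34, 0.0224) was called in neither line alone. Its values in 697 were 50.3, 54.8 and 55.7 CPM in the control and 64.0, 61.5 and 59.6 CPM in the edited libraries, higher without overlap, and in KOPN-8 they were lower without overlap. In 697, CKAP2 had 157, 163 and 165 against 177, 164 and 195 CPM, KIF2C 115, 151 and 147 against 144, 162 and 157 CPM and TACC3 66.3, 79.9 and 78.4 against 72.8, 71.9 and 68.3 CPM, all overlapping. CDCA2 had 41.0, 49.3 and 50.3 against 47.1, 53.6 and 56.4 CPM there, KIF20A 97.9, 121 and 125 against 99.3, 105 and 109 CPM and G2E3 70.7, 63.2 and 72.2 against 76.4, 70.4 and 79.9 CPM. The call of TACC3 was lost in 8 of the 12 fits that left out a library, that of NEK2 in 5 and that of KIF2C in 3. With the replicate number as a block, 13 of the 48 were called, beside 25.4% of all genes tested. TTK (-0.27), DLGAP5 (-0.25), CENPE (-0.24) and KIF20A (-0.24) were added, with edgeR adjusted p from 0.0272 to 0.0345.

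The regulators of the programme, 16 genes of DREAM, MuvB, B-MYB, FOXM1 and NF-Y, gave 1 call in 697 (6.25%, beside 9.45% of all genes tested) and 7 in KOPN-8 (43.8%, beside 28.7%). FOXM1 had 102, 132 and 135 CPM in the control and 115, 114 and 126 CPM in edited 697 (-0.06, SE 0.0825), and 166, 172 and 166 against 168, 164 and 166 CPM in KOPN-8 (-0.01, SE 0.0804). The groups overlapped in both lines. MYBL2 had 143, 190 and 188 against 165, 162 and 144 CPM in 697 (-0.14, SE 0.0854). In KOPN-8 it rose from 142, 141 and 145 to 175, 165 and 169 CPM (0.25, SE 0.0849; edgeR adjusted p = 0.0298). In 697 replicate 1 of the control was lowest for FOXM1 and MYBL2, as for the 48 genes.

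Other regulators called were E2F4, the main E2F of DREAM, lower in edited 697 (-0.25) and higher in edited KOPN-8 (0.35). E2F5, its close relative, fell in KOPN-8 from 10.5 ± 1.07 to 0.751 ± 0.242 CPM (SD, n = 3; -3.75), and TFDP1, their dimer partner, from 289.9 ± 13.8 to 160 ± 11.5 CPM (-0.86). E2F5 lies on chromosome 8, where the median in edited KOPN-8 was -0.53, so E2F5 fell far more than that median. TFDP1 lies on chromosome 13 beyond PCDH9, where the median was -0.58. What lowered these 2 genes was not tested. In all, 5 of the 16 were called higher and 2 lower in KOPN-8, with a median of 0.16.

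Among 13 genes of mitotic entry and its brakes, CDKN1A was lower in both edited clones: from 71.6 ± 6.29 to 52.0 ± 4.94 CPM in 697 (-0.46, SE 0.0864; edgeR adjusted p = 0.000751) and from 261 ± 27.3 to 186 ± 1.09 CPM in KOPN-8 (-0.49, SE 0.0788; edgeR adjusted p = 3.33e-05). In 697 no other gene of that list was called. In KOPN-8 the checkpoint kinase CHEK1 (0.26) and MASTL (0.28), the Greatwall kinase that restrains the phosphatase opposing CDK1, rose. There 3 of 13 were called higher and 2 lower. Called in all were 7.69% beside 9.45% of all genes tested in 697, and 38.5% beside 28.7% in KOPN-8.

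The remaining mitotic lists were called more often in KOPN-8 than in 697, as were all genes. Of 22 genes of the anaphase-promoting complex and its inhibitors, none was called in 697, where 0 of 22 is set beside 9.45% of all genes. In KOPN-8, ESPL1 (separase, 0.26) rose and the subunits CDC16 (-0.43) and ANAPC11 (-0.26) fell, CDC16 lying on chromosome 13 beyond PCDH9. These 3 of 22 are 13.6%, beside 28.7% of all genes tested in KOPN-8. Of 32 other kinetochore and centromere genes, 3 were called higher and 1 lower in 697, 12.5% beside 9.45% of all genes tested. SGO2 (0.46), the protector of centromeric cohesion, and CENPP (0.42) were among those that rose. In KOPN-8, 15 of the 32 (46.9%) were called higher and 0 lower, beside 11.5% of all genes called higher, with a median of 0.19. CENPW rose there from 15.7 ± 0.793 to 32.2 ± 1.76 CPM (1.04), CENPQ by 0.46 and MIS12 by 0.44 on the log2 scale. Of the 5 kinetochore genes among the 48 none was called in KOPN-8 by the main edgeR fit or by DESeq2. NDC80 was called higher there in edgeR fits with RLE scaling (0.22), upper-quartile scaling (0.23), no filter (0.22), the replicate block (0.21) and KOPN-8 alone (0.22).

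Of 17 condensin and cohesin genes, 1 was called in 697 (STAG2, 0.25, higher) and 8 in KOPN-8, 7 higher and 1 lower. These are 5.88% beside 9.45% of all genes tested in 697, and 47.1% beside 28.7% in KOPN-8. STAG1 (0.35) and NCAPG2 (0.28) rose, and the cohesin subunit RAD21, on chromosome 8, fell from 909 ± 22.1 to 480.4 ± 33.3 CPM (-0.92). Among 32 other spindle genes, 697 had 2 called higher (PBK, 0.29, and ASPM, 0.32) and 1 lower (DEPDC1, -0.76). KOPN-8 had 4 higher and 3 lower, with HAUS8 (0.52) up. PBK (-0.96, on chromosome 8) and BORA (-0.74, on chromosome 13 beyond PCDH9), the activator of AURKA towards PLK1, were down. Of these spindle genes, 9.38% were called in 697 beside 9.45% of all genes tested, and 21.9% in KOPN-8 beside 28.7%. Of the 42 S phase genes, 3 were called higher and 0 lower in 697 (PRIM1, 0.42, and UNG, 0.36, among them) and 17 higher and 5 lower in KOPN-8 (UHRF1, 0.70, and CLSPN, 0.53, up and MCM4, -0.60, on chromosome 8, down), with medians of 0.07 and 0.14. That is 7.14% called beside 9.45% of all genes tested in 697, and 52.4% beside 28.7% in KOPN-8.

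The promoter elements were set beside the changes. The 20 genes with a CHR and a CCAAT box had median log2 values of 0.10 in 697, 0.03 in KOPN-8 and 0.58 between the control lines. The 21 without both had 0.08, 0.07 and 0.54. These values are given without a test.

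For some genes the counts are uncertain. In GENCODE v29, 19 of the 48 share exon bases with another gene, 16 of them with a gene on the opposite strand. NUSAP1 shares 62.2% and PRC1 57.6% of its exon bases with another protein-coding gene on its own strand, and NUSAP1 also had the widest spread between replicates. SMC4 shares 18.5% of its exon bases with TRIM59 on the opposite strand and PLK1 11.6% with an antisense RNA. Processed copies took few counts: CDC20P1 had 1.13% of the counts of CDC20, and UBE2CP2 0.256% of those of UBE2C.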

How the data were processed

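The 12 libraries were stranded, poly-A-selected RNA-seq, per the labels' protocols. Trimmomatic, STAR, DESeq2 and the build hg19 are named in the submitters' processing notes. No source used here gives their versions, the read counter or the gene annotation. The deposited table holds whole-number read counts by gene symbol. The authors' normalized table was not used. Library totals of 10378769 to 18278662 counts make 3 counts in a library 0.159 to 0.292 CPM.

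Counts were fitted in edgeR 4.0.16 (limma 3.58.1, R 4.3.3) after filterByExpr and TMM scaling, by a quasi-likelihood model with robust dispersions and 1 coefficient for each of the 4 groups of 3 libraries. Benjamini-Hochberg adjustment covered all 15218 genes tested, with a call at an adjusted p under 0.05. The contrasts were edited minus control (in 697 and in KOPN-8), the difference of these changes, and control KOPN-8 minus control 697. Log2 CPM of single libraries used a prior count of 2. The fit was tested on simulated data.

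Earlier results of these data were known when the 48 genes, the further gene lists and the naming rule were chosen. The rule named SETD2, FOXM1, MYBL2, CCNB1, CDK1, CCNA2, PLK1, AURKA, CDC20, UBE2C, MKI67 and BUB1, every gene of the 48 called in an edited clone or in the line difference, the 10 of smallest p between control lines, and up to 3 called genes of each other list per contrast. Genes just outside a threshold, overlapping genes and some partner genes were named after their values were seen. Some genes that the rule names are not reported here.

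Same-numbered 697 libraries had correlated deviations from their group means over 10809 genes (r = 0.240, 0.414 and 0.185), so blocked values stand beside the 697 results, while the values printed otherwise are unblocked. In KOPN-8 the r of same-numbered libraries was lower (0.0996, 0.108 and 0.148), the first just under 0.1, so the KOPN-8 block is only an alternative. KOPN-8 libraries of unlike number had r from -0.103 to 0.00141, so the same-numbered ones were higher there too. No pair of replicates was a repeat of 1 library: chi-square divided by its degrees of freedom was 2.74 to 9.78. Alternatives were RLE and upper-quartile scaling, no filter, DESeq2 1.42.0, a replicate block, separate fits, an adjusted p under 0.01 and leaving out each library. Promoters and gene order came from RefSeq on GRCh38.p14 and exon overlaps from GENCODE v29 on GRCh38, a build other than that of the counts. PCDH9 marks a break in KOPN-8 changes taken from an earlier analysis of these data.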

Additional observations from a re-analysis of the deposited data

Results flagged for a closer look

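For 9 of the 48 genes the change in the edited clone differed between the lines by the test of the difference itself (KOPN-8 change minus 697 change, log2; edgeR quasi-likelihood, Benjamini-Hochberg adjusted p over all genes tested). UBE2C differed by 2.31 (adjusted p = 6.34e-11, lower in 697). TMPO differed by 0.69 (adjusted p = 2.06e-05, opposite directions). PLK1 differed by -0.64 (adjusted p = 6.56e-05) and CDCA2 by -0.67 (adjusted p = 0.000241), both lower in KOPN-8. CCNB2 differed by -0.40 (adjusted p = 0.00497), CKAP2 by -0.38 (adjusted p = 0.00683), KIF2C by -0.42 (adjusted p = 0.0165), NEK2 by -0.34 (adjusted p = 0.0224) and TACC3 by 0.30 (adjusted p = 0.0376). The share of all genes tested that differed in this way was 19.5%.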

How the results depend on the processing

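Directions held: no called value of a named gene changed sign in any alternative that was run. The 697 count of 7 was 4 at an adjusted p under 0.01 and 12 with the replicate block. Over all genes these 2 alternatives gave 806 and 2319 calls beside 1438. The 697 count was 5 in a fit of 697 alone (7.19% of all genes). It was 5 to 7 when a library was left out (6.78% to 9.54% of all genes, beside 9.45% in the main fit). The KOPN-8 count of 10 was 4 at an adjusted p under 0.01 (2966 of all genes, beside 4370). It was 14 with the replicate block (35.1% of all genes), whose libraries are not shown to be paired. That block added CCNB1 (-0.17) and CDC25C (-0.22), both lower, and NDC80 (0.21) and CDCA3 (0.19), both higher. A fit of KOPN-8 alone gave 15 (38.6% of all genes). RLE or upper-quartile scaling gave 5 higher and 5 lower (main 4 and 6). Leaving out a library gave 4 to 8, with 21.8% to 24.4% of all genes called, beside 28.7% in the main fit. The difference between lines stayed at 6 to 9 without a library, with 15.8% to 20.1% of all genes called, beside 19.5% in the main fit. It was 13 with the block, and 1902 of all genes, beside 2971, were called at an adjusted p under 0.01. The comparison of control lines stayed at 38 to 43 of 48, with 69% to 70.9% of all genes called without a library, beside 73.3%. Its median of 0.56 was 0.47 under upper-quartile scaling, which moved the median of all genes by -0.09. Of the called genes named, 5 of 7 in 697, 4 of 10 in KOPN-8, 6 of 9 for the difference and 15 of 15 between control lines were called under all alternatives other than the stricter p. Medians without a library, an alternative added after the data were seen, ran from 0.01 to 0.14 in 697, 0.01 to 0.08 in KOPN-8, -0.14 to -0.05 for the difference and 0.48 to 0.59 between lines. With 3 libraries a group, the smallest changes called were 0.26 in 697 and 0.18 in KOPN-8 on the log2 scale.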
